A study of Mus musculus with 6 samples.

Results

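The calmodulin-dependent kinases (CaM kinases) of purified mouse retinal ganglion cells (RGCs) were examined across the late embryonic to early postnatal period. Of the 24060 genes in the deposited count table, 10 are described here. They were picked by gene symbol and selected on the differences between E18 and P5 already seen in these samples, so their levels and differences are given as a description and carry no test. The 10 genes are the CaMKII subunit genes Camk2a, Camk2b, Camk2d and Camk2g, the CaMKI genes Camk1 and Camk1d, the CaMKIV gene Camk4, the upstream CaM kinase kinase genes Camkk1 and Camkk2, and Camkv, which encodes a related protein without kinase activity. RGCs were obtained from C57BL/6 mice at embryonic day 18 (E18, samples numbered 1, 3 and 4) and postnatal day 5 (P5, samples numbered 6, 8 and 9). The mice carried no named allele and received no named treatment, and both ages went through the same papain dissociation, removal of macrophages and capture on antibodies against CD90 (Thy1). The comparison was made because RGCs grow axons readily before birth and lose much of that ability soon after. Whether a sample pools several animals is not given in the sources used here, so the spread between samples may be partly technical.

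CaM kinases read calcium signals. When calcium enters a neuron it binds calmodulin, and calcium-loaded calmodulin releases the kinases from their own inhibitory segment. CaMKII assembles into large rings of mixed subunits that phosphorylate each other and thereby stay active after calcium has fallen, and it is best known for its role at synapses. CaMKI and CaMKIV act as single molecules and reach full activity only after a CaM kinase kinase has phosphorylated them. CaMKI has been linked to the growth of axons and dendrites, and CaMKIV acts mainly in the nucleus, where it phosphorylates the transcription factor CREB.

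The coding sequences show what sets Camkv apart and what the CaMKII genes share. Each stretch below has 30 bases, is read 5′ to 3′ on the coding strand from the GENCODE transcript (mm10) that carries the RefSeq identifier in the deposited table, and lies in coding exons. The first set covers the catalytic loop of the kinase fold, with the codon at the place of the catalytic aspartate in capitals. Where the coordinates span more than 30 bases, an intron lies between them.
Camk2b, minus strand, exons 6 and 7, chr11:5990417-5992843: ggggtcgtccacagaGACctcaagcctgag
Camk1, minus strand, exons 5 and 6, chr6:113338401-113339308: ggcattgtgcaccggGATctcaagccagag
Camkk2, minus strand, exon 10, chr5:122746409-122746438: aagatcatccatcggGACatcaaaccttcc
Camkv, plus strand, exons 5 and 6, chr9:107946194-107946345: aagattgtgcacaggAACctcaagctggaa
The codon encodes aspartate in 7 of the 8 genes whose sequences were read, and asparagine, at codon 145, in Camkv. The sequences of Camk2a and Camk4 are not shown.

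The next set covers the motif that holds the magnesium of ATP, with the codon of its last residue in capitals.
Camk2b, minus strand, exon 7, chr11:5990348-5990377: aagctggcagacttcGGCctggccatcgag
Camk1, minus strand, exon 6, chr6:113338332-113338361: atgatctctgactttGGCctctccaagatg
Camkk2, minus strand, exon 10, chr5:122746349-122746378: aagattgccgacttcGGTgtaagcaacgag
Camkv, plus strand, exon 6, chr9:107946385-107946414: gtcatcagcgactttCACctggctaagcta
It encodes glycine in 7 of the 8 genes and histidine, at codon 168, in Camkv. The last set covers the segment through which CaMKII subunits phosphorylate each other, with the codon of the phosphorylated threonine, codon 287 in all 3 genes, in capitals.
Camk2b, minus strand, exon 11, chr11:5988985-5989014: atgcacagacaggagACTgtggaatgtctg
Camk2d, plus strand, exon 11, chr3:126797726-126797755: atgcacaggcaggagACTgtagactgcttg
Camk2g, minus strand, exon 11, chr14:20760427-20760456: atgcatcgccaagagACGgtagagtgctta
This motif was found in the coding sequences of those 3 genes and in none of the other 5 read. Over aligned bases the coding sequences of the CaMKII genes, Camk2a included, were 76.4% to 79.3% identical, Camk1 and Camk1d were 71.5% identical, and Camkk1 and Camkk2 were 68.8% identical. The longest run of identical bases between the transcripts of any 2 of the 10 genes was 34, shorter than the 100-base reads.

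Library totals were 81213639 to 114512853 counts, and each of the 10 genes had 636 to 45913 counts in every sample, so all passed the expression filter. The 11 RGC marker genes summed to 6277 to 7162 CPM (counts scaled to a common library size, with TMM normalization) at E18 and 7121 to 8672 at P5. Of the RGC genes, 3 were called higher at P5 and 2 lower in the test over all genes described below. Markers of several other cells moved with age. The 9 amacrine genes summed to 354 to 537 CPM at E18 and 607 to 743 at P5, although only 1 of them was called higher and 4 were called lower. The 8 genes of dividing cells summed to 223, 60.0 and 17.7 CPM in E18 replicates 1, 3 and 4 and to 11.9 to 24.4 at P5. Of these 8 genes, 0 were called higher and 5 lower. The 6 endothelial and pericyte genes had 15.3 to 71.2 CPM at E18 and 10.7 to 15.2 at P5, with 2 called higher and 1 lower. The 6 genes of the oligodendrocyte lineage had 70.8 to 73.5 and 35.6 to 59.4, with 1 called higher and 1 lower. Sums at E18 and P5 were 348 to 375 and 315 to 325 CPM for 8 genes of Müller glia and astrocytes, 49.7 to 74.3 and 69.9 to 97.4 for 7 bipolar genes, and 3.47 to 14.6 and 3.46 to 4.22 for 8 photoreceptor genes. Of the genes of Müller glia and astrocytes, 1 was called higher and 2 lower. These counts were 2 and 2 for bipolar genes, and 1 and 3 for photoreceptor genes. Of 7 microglial genes, 6 stayed below 1 CPM in every sample, and no marker gene of any list was at 0 in all samples. The part of these other cells in the values below was not tested. In such bulk samples a change in the cells present and a change in RNA per cell cannot be told apart.

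Most of the 10 genes were higher at P5. In 6 of the 10 genes every P5 sample lay above every E18 sample, in Camkk2 every P5 sample lay below, and in 3 genes (Camk2g, Camk1 and Camk1d) the ages overlapped. Among all 16449 genes tested, 28.5% had every P5 sample above and 27.6% every P5 sample below the E18 samples. The median log2 fold change of P5 over E18 was 0.43 for the 10 genes and -0.00473 for all genes tested. Since the genes were selected on this very comparison, nothing is read from their share or their median.

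**Figure D1:**
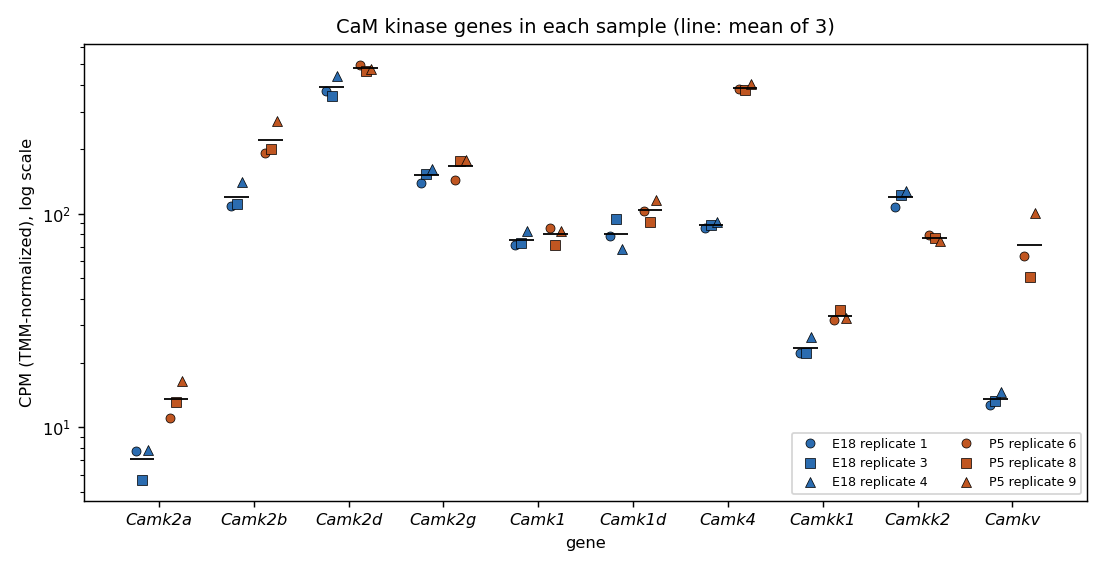
Level of each CaM kinase gene in every sample, in TMM-normalized CPM on a log axis, with E18 samples in blue, P5 samples in orange and a line at the mean of the 3 samples of an age. Camk4 and Camkv show the widest gap between the ages, and Camkk2 is the only gene with all P5 samples below all E18 samples.

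Camk4 (ENSMUSG00000038128.7, chromosome 18 of mm10, 32934931 to 33191228, plus strand) had 85.9, 88.6 and 91.2 CPM in E18 replicates 1, 3 and 4 and 381, 380 and 402 CPM in P5 replicates 6, 8 and 9. The samples of each age lay close together, and the P5 mean was 4.38 times the E18 mean (387 ± 12.3 against 88.6 ± 2.62 CPM, SD, n = 3 each). The log2 fold change was 2.13 with a standard error of 0.0821, and it was 2.10 to 2.16 when any sample was left out. The coefficient of variation between samples was 2.96% at E18 and 3.17% at P5, against medians of 5.73% and 11.4% for the 9725 genes that averaged 10 CPM or more. Its exons share 72 bases with a gene on the opposite strand, and whether the counting used strand is not given in the sources used here.

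Camkv (ENSMUSG00000032936.13, chromosome 9, 107935674 to 107949691, plus strand), the pseudokinase with the altered codons shown above, is found at synapses and on vesicles of neurons. It had 12.7, 13.3 and 14.7 CPM in E18 replicates 1, 3 and 4 and 63.1, 50.6 and 101 CPM in P5 replicates 6, 8 and 9. The ages were far apart, but P5 replicate 9 lay well above the other P5 samples, and the coefficient of variation was 7.59% at E18 and 36.8% at P5. The P5 mean was 5.27 times the E18 mean (71.7 ± 26.4 against 13.6 ± 1.03 CPM, SD, n = 3 each). The log2 fold change was 2.40 (standard error 0.236), 2.07 without P5 replicate 9 and 2.62 without P5 replicate 8.

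Among the CaMKII subunit genes, Camk2a and Camk2b were higher at P5 by similar factors, Camk2d was slightly higher and Camk2g overlapped between the ages. Camk2a (ENSMUSG00000024617.16, chromosome 18, 60925618 to 60988152, plus strand), the subunit that dominates in the adult forebrain, was the lowest of the 10 genes, with 7.78, 5.67 and 7.83 CPM at E18 and 11.1, 13.2 and 16.5 at P5. The P5 mean was 1.92 times the E18 mean, or 0.94 on the log2 scale (standard error 0.190). Camk2b (ENSMUSG00000057897.14, chromosome 11, 5969644 to 6066362, minus strand), whose protein also binds actin, had 108, 111 and 141 CPM at E18 and 192, 201 and 271 at P5. The highest values of both ages came from E18 replicate 4 and P5 replicate 9, and the log2 fold change was 0.88 (standard error 0.157), or 0.71 without P5 replicate 9.

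Camk2d (ENSMUSG00000053819.16, chromosome 3, 126596302 to 126846326, plus strand) had 373, 355 and 441 CPM at E18 and 497, 466 and 476 at P5. The ages were separated by a narrow margin, with a log2 fold change of 0.30 (standard error 0.100). Camk2g (ENSMUSG00000021820.18, chromosome 14, 20734875 to 20794088, minus strand) had 139, 154 and 161 CPM at E18 and 144, 176 and 179 at P5. Its log2 fold change of 0.13 (standard error 0.109) lay within the spread between samples. Both genes are expressed in many tissues.

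Since CaMKII rings are mixed, the share of each subunit gene was computed from CPM per kilobase, that is, CPM divided by the length of all exons of the gene. Camk2b made up 22.9%, 23.2% and 25.0% of the 4 genes in the E18 samples and 30.6%, 30.5% and 36.7% in the P5 samples, with means of 23.7% ± 1.13 and 32.6% ± 3.52 (SD, n = 3 each). The Camk2g share was 34.5%, 37.4% and 33.2% at E18 and 26.7%, 31.1% and 28.1% at P5. The shares of Camk2b and Camk2g thus did not overlap between the ages and differed in opposite directions. Shares of 1 total are linked, so a higher share of 1 gene lowers others. The level of Camk2g itself was not lower at P5 (39.7 ± 2.94 CPM per kilobase at E18, 43.6 ± 5.03 at P5, SD, n = 3 each), and the ages overlapped. Camk2a made up 1.30%, 0.928% and 1.09% at E18 and 1.39%, 1.57% and 1.75% at P5, a small share that was higher in every P5 sample. The share of Camk2d overlapped (40.2% ± 1.47 and 37.2% ± 3.89, SD, n = 3 each). The sum of the 4 genes was 106, 108 and 127 CPM per kilobase at E18 and 141, 149 and 167 at P5. These shares depend on the length used. With the 1 transcript named in the table, Camk2b made up 13.8% at E18 and 19.6% at P5, and Camk2d 66.4% and 63.3%. Per unit length, Camk2b exceeded Camk2a 17.7 to 25.0 times at E18 and 19.5 to 22.0 times at P5, so the ratio of these 2 subunits overlapped between the ages.

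**Figure D2:**
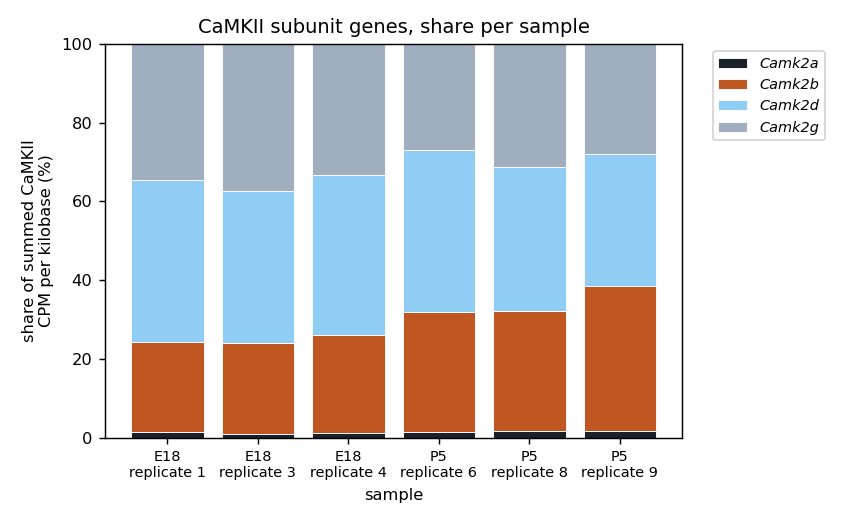
Share of each CaMKII subunit gene in the summed CPM per kilobase of the 4 genes, as stacked bars for each sample, in percent. Camk2b ranged from 22.9% to 25.0% at E18 and from 30.5% to 36.7% at P5, and Camk2a is the thin band at the base of every bar.

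The CaMKI genes showed small differences. Camk1 (ENSMUSG00000030272.15, chromosome 6, 113334124 to 113343984, minus strand) had 71.3, 72.7 and 82.5 CPM at E18 and 85.7, 71.6 and 82.5 at P5. The ages overlapped, with P5 over E18 at 0.08 on the log2 scale (standard error 0.104). Its exons share 65 bases with those of Ogg1 on the opposite strand. Camk1d (ENSMUSG00000039145.16, chromosome 2, 5293457 to 5714515, minus strand) had 78.9, 94.8 and 68.3 CPM at E18 and 103, 91.2 and 116 at P5. Here E18 replicate 3 lay above P5 replicate 8, and the log2 fold change was 0.36 (standard error 0.139), between 0.25 and 0.49 when each sample was left out.

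The kinases that activate CaMKI and CaMKIV differed between the ages in opposite directions. Camkk1 (ENSMUSG00000020785.17, chromosome 11, 73019008 to 73042073, plus strand) had 22.2, 22.2 and 26.5 CPM at E18 and 31.7, 35.3 and 32.5 at P5. All P5 values were higher, by 0.49 on the log2 scale (standard error 0.111). Camkk2 (ENSMUSG00000029471.13, chromosome 5, 122731170 to 122779409, minus strand), which also activates the energy sensor AMPK, had 107, 122 and 128 CPM at E18 and 79.0, 77.2 and 74.1 at P5. All P5 values were lower, with a log2 fold change of -0.63 (standard error 0.0949), from -0.71 to -0.58 when each sample was left out. Per kilobase, Camkk2 exceeded Camkk1 3.19 to 3.61 times at E18 and 1.44 to 1.65 times at P5. With the length of the named transcripts these ratios were 6.01 to 6.82 and 2.72 to 3.10, so their size depends on the length used and their order does not.

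**Figure D3:**
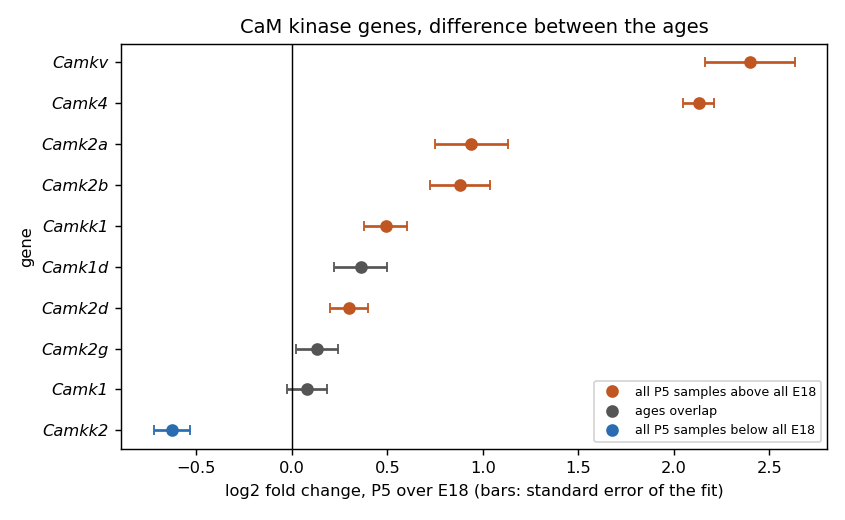
Log2 fold change of P5 over E18 for the 10 genes (points) with the standard error of the edgeR fit (bars), coloured by whether the samples of the ages overlapped. Values run from -0.63 for Camkk2 to 2.40 for Camkv, and the grey points (Camk1, Camk2g and Camk1d) are the genes with overlap.

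Ranked by CPM per kilobase, Camk4 had the highest mean at P5 but not at E18. At E18 the order was Camk1 (50.5 ± 4.07), Camk2d (45.7 ± 5.37), Camk2g (39.7 ± 2.94), Camk4 (32.6 ± 0.965), Camk2b (27.1 ± 4.16), Camkk2 (22.9 ± 2.08), Camk1d (11.4 ± 1.88), Camkk1 (6.90 ± 0.717), Camkv (4.12 ± 0.313) and Camk2a (1.25 ± 0.217, SD, n = 3 each). The ranges of Camk1 and Camk2d, of Camk2d and Camk2g, of Camk4 and Camk2b, and of Camk2b and Camkk2 overlapped, so these neighbours were not separated. At P5 Camk4 reached 143 ± 4.52 CPM per kilobase, followed by Camk2d (56.3 ± 1.84), Camk1 (53.4 ± 4.94), Camk2b (49.9 ± 9.74) and Camk2g (43.6 ± 5.03), and from Camk2d to Camk2g each overlapped the next. Camkv had 21.7 ± 8.00, Camkk2 14.8 ± 0.481, Camk1d 14.6 ± 1.77, Camkk1 9.69 ± 0.563 and Camk2a 2.40 ± 0.476 (SD, n = 3 each), and among neighbours in this order Camkk2 and Camk1d overlapped. The lowest Camkv value, 15.4 in P5 replicate 8, also lay within the range of Camk1d (12.9 to 16.4). In E18 replicates 1, 3 and 4 the level of Camk4 was 0.299, 0.302 and 0.264 times the summed level of the CaMKII genes, and in P5 replicates 6, 8 and 9 it was 0.991, 0.942 and 0.887 times that sum. With the length of the named transcripts the ratio was 0.138 to 0.162 at E18 and 0.504 to 0.516 at P5. The order depends on the length used. With the length of the named transcript, Camk2d had 143 CPM per kilobase at E18, above Camk1, and 176 at P5, above Camk4. Camkk2 then had 43.3 at E18 and 27.9 at P5. Its mean lay above those of Camk2g, Camk4 and Camk2b at E18 and above that of Camkv at P5. The ranges of Camkk2 and Camk2g overlapped at E18, and those of Camkk2 and Camkv at P5.

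The E18 samples differed in a way that most of the 10 genes shared, and the P5 samples did so less. E18 replicate 4 had the highest value of the E18 samples for 9 of the 10 genes, all but Camk1d, for which it had the lowest. Over all genes tested it was the highest in 40.9%. The excess over the E18 mean was largest for Camk2b and smallest for Camk4. Among the P5 samples, replicate 9 was highest for 6 genes, replicate 6 for 3 and replicate 8 for 1. Over all genes tested, P5 replicates 9, 6 and 8 were the highest in 33.2%, 28.0% and 38.8%. For Camkk2, the gene with the lower level at P5, E18 replicate 4 was the highest sample and thus farthest from the P5 values. E18 replicate 4 also stood apart in its marker sums. It had the highest sum of RGC genes (7162 CPM, against 6277 and 6292 in E18 replicates 1 and 3) and the lowest sums of dividing-cell, endothelial and pericyte genes (15.3, against 71.2 and 63.9) and amacrine genes (354, against 424 and 537). The part of these differences in its kinase values was not tested.

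**Figure D4:**
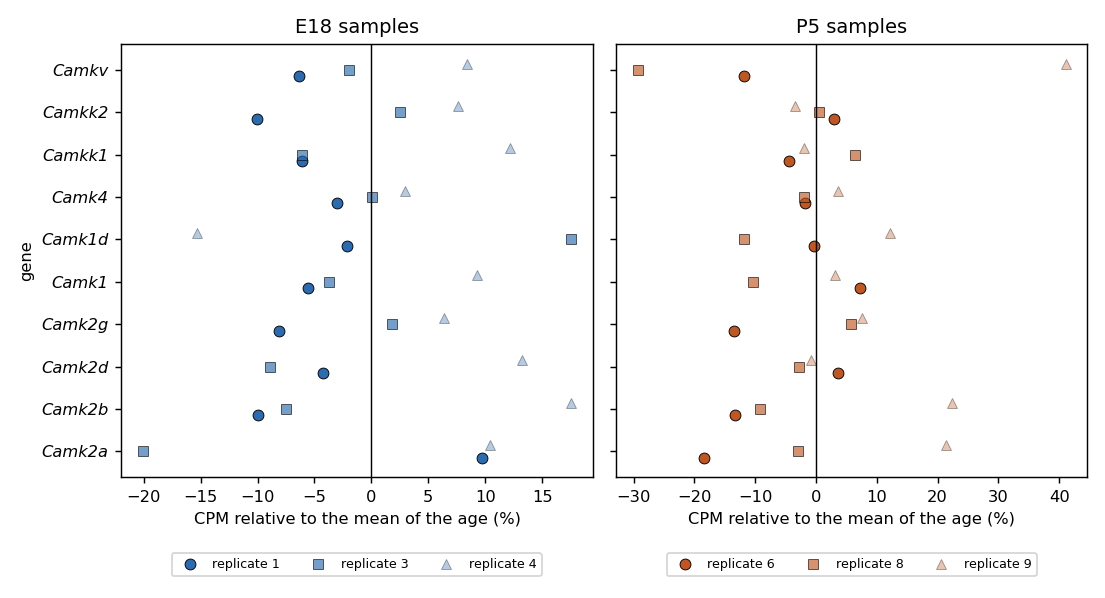
CPM of each sample relative to the mean of its age, in percent, for the 10 genes, with E18 samples on the left and P5 samples on the right (the horizontal axes differ). E18 replicate 4 (triangles, left) lies to the right of the other E18 samples for 9 genes, and P5 replicate 9 (triangles, right) stands apart for Camkv.

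The genes around the kinases were examined in 5 lists of 70 genes, none of them among the 10. In the edgeR quasi-likelihood test, adjusted over all genes, 43.4% of all genes tested were called (22.5% higher and 20.8% lower at P5). Of the 69 genes of the lists that were tested, 23 were higher and 18 lower at P5, and 28 were not called. Their median log2 fold change was -0.05.

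The genes of calmodulin, of proteins that bind it and of CaMKII inhibitors were mostly higher at P5. Of 11 genes, 7 were higher, 2 were lower and 2 were not called, and the median log2 fold change was 0.56. Calm2, which encodes calmodulin, had 1465, 1583 and 1721 CPM at E18 and 2473, 2275 and 2285 at P5, which is 0.56 ± 0.0878 (SE) higher as a log2 difference (adjusted p = 0.00168 in edgeR). For Calm3, which encodes the same protein, the log2 fold change was 0.52 (adjusted p = 0.00514 in edgeR). The genes of the small CaMKII inhibitor proteins rose as well. Camk2n1 had 106, 101 and 113 CPM at E18 and 204, 183 and 221 at P5, a log2 difference of 0.93 (SE 0.0986, adjusted p = 0.000362 in edgeR). That of Camk2n2 was 0.95 (SE 0.155, adjusted p = 0.00204 in edgeR). Pcp4, a small protein that speeds calcium exchange by calmodulin, rose most, from 66.4, 52.4 and 97.0 CPM to 368, 250 and 347 (log2 fold change 2.16, standard error 0.233, adjusted p = 0.000378 in edgeR). Nrgn (neurogranin), which holds calmodulin at low calcium, was at 2.68 to 4.67 CPM at E18 and 6.17 to 11.7 at P5 (log2 fold change 1.22, adjusted p = 0.0134 in edgeR), and its call was lost without E18 replicate 3 (0.0543, against 0.000157 to 0.0543 over all alternatives). The 2 genes that were lower, Gap43 (log2 fold change -0.51) and Marcksl1 (-0.46), are growth cone and membrane proteins that also bind calmodulin. They are named after their values were seen.

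Of 16 tested genes of other kinases of the family, 2 were higher, 3 were lower and 11 were not called (median log2 fold change -0.21). The remaining CaMKI genes, Camk1g and Pnck, were not called. Camk1g had 17.8 to 22.8 CPM at E18 and 15.3 to 21.5 at P5 (log2 fold change -0.12, adjusted p = 0.563 in edgeR), and Pnck had 47.6 to 58.7 and 43.2 to 51.9 CPM (log2 fold change -0.17, adjusted p = 0.260 in edgeR). Both are named after their values were seen. The largest called values were those of Mylk3 (1.53), which stayed below 0.3 CPM, of Dclk3 (-1.03) and of Stk33 (0.58). The call of Mylk3 was lost in 5 of the 11 alternatives that tested it, and that of Stk33 in 5 of 12. The count of called genes was 1 without E18 replicate 3, 2 without P5 replicate 6 or 9, 3 without E18 replicate 1 or 4, and 9 without P5 replicate 8.

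Among 11 genes of the phosphatase calcineurin, its regulators and the phosphatases that act on CaM kinases, 5 were higher, 2 were lower and 4 were not called (median log2 fold change 0.27). Rcan3, a calcineurin regulator, had 99.6, 103 and 117 CPM at E18 and 204, 184 and 225 at P5 (log2 fold change 0.94, standard error 0.107, adjusted p = 0.000477 in edgeR). Ppp3cc, a catalytic subunit of calcineurin, went from 18.5 ± 0.853 to 33.3 ± 6.16 CPM (SD, n = 3 each), a log2 difference of 0.85 (SE 0.144, adjusted p = 0.00240 in edgeR). Rcan1 reached 0.37 (adjusted p = 0.0441 in edgeR, from 0.0304 to 0.145 over the alternatives), and it lost its call when any 1 of the E18 samples was left out. Only 2 genes of this list were called when any E18 sample was left out. The phosphatases that remove the activating phosphate of CaM kinases, Ppm1e (188 to 217 CPM at E18 and 208 to 259 at P5) and Ppm1f (49.0 to 55.6 and 54.5 to 62.2), were not called. They are named after their values were seen.

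The next list holds factors through which CaM kinases act on transcription. Of 16 genes, 7 were lower, 2 were higher and 7 were not called, with a median log2 fold change of -0.30. Earlier values of Mef2a, Mef2c, Mef2d and Srf were known when this list was drawn up. The higher genes were Mef2c (0.85, standard error 0.165, adjusted p = 0.00418 in edgeR) and Mef2a (0.78, standard error 0.0840, adjusted p = 0.000375 in edgeR), and Srf had the lowest value (-1.03, standard error 0.122, adjusted p = 0.000567 in edgeR). Creb1, the best known nuclear substrate of CaMKIV, had 124, 141 and 125 CPM at E18 and 121, 109 and 94.2 at P5, which did not pass the test (log2 fold change -0.27, adjusted p = 0.0803 in edgeR). Of the class IIa histone deacetylases, which CaM kinases drive out of the nucleus, Hdac5 (-0.62), Hdac7 (-0.63) and Hdac4 (-0.37) were lower, and Hdac9 (-0.07, adjusted p = 0.669 in edgeR) was not called. Creb1 and the deacetylases are named after their values were seen.

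Of 15 cytoplasmic and synaptic targets and partners, 7 were higher, 4 were lower and 4 were not called (median log2 fold change 0.03). The NMDA receptor subunits, through which calcium reaches CaMKII and to which it binds, were among the higher genes. Grin2a had 3.42, 3.68 and 2.73 CPM at E18 and 6.80, 6.09 and 11.4 at P5 (log2 fold change 1.30, standard error 0.258, adjusted p = 0.00465 in edgeR), and Grin1 had 26.2 to 35.7 and 51.4 to 76.1 CPM (log2 fold change 1.01, standard error 0.172, adjusted p = 0.00239 in edgeR). Prkaa2, a catalytic subunit of AMPK and thus a target of Camkk2, had 116, 115 and 133 CPM at E18 and 256, 215 and 264 at P5 (log2 fold change 1.01, standard error 0.109, adjusted p = 0.000382 in edgeR). The 4 lower genes were Kalrn (-0.91), Stmn1 (-0.77), Tiam1 (-0.53) and Akt1 (-0.34), named after their values were seen. Kalrn and Tiam1 activate Rac at dendritic spines, and Stmn1 destabilizes microtubules.

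**Figure D5:**
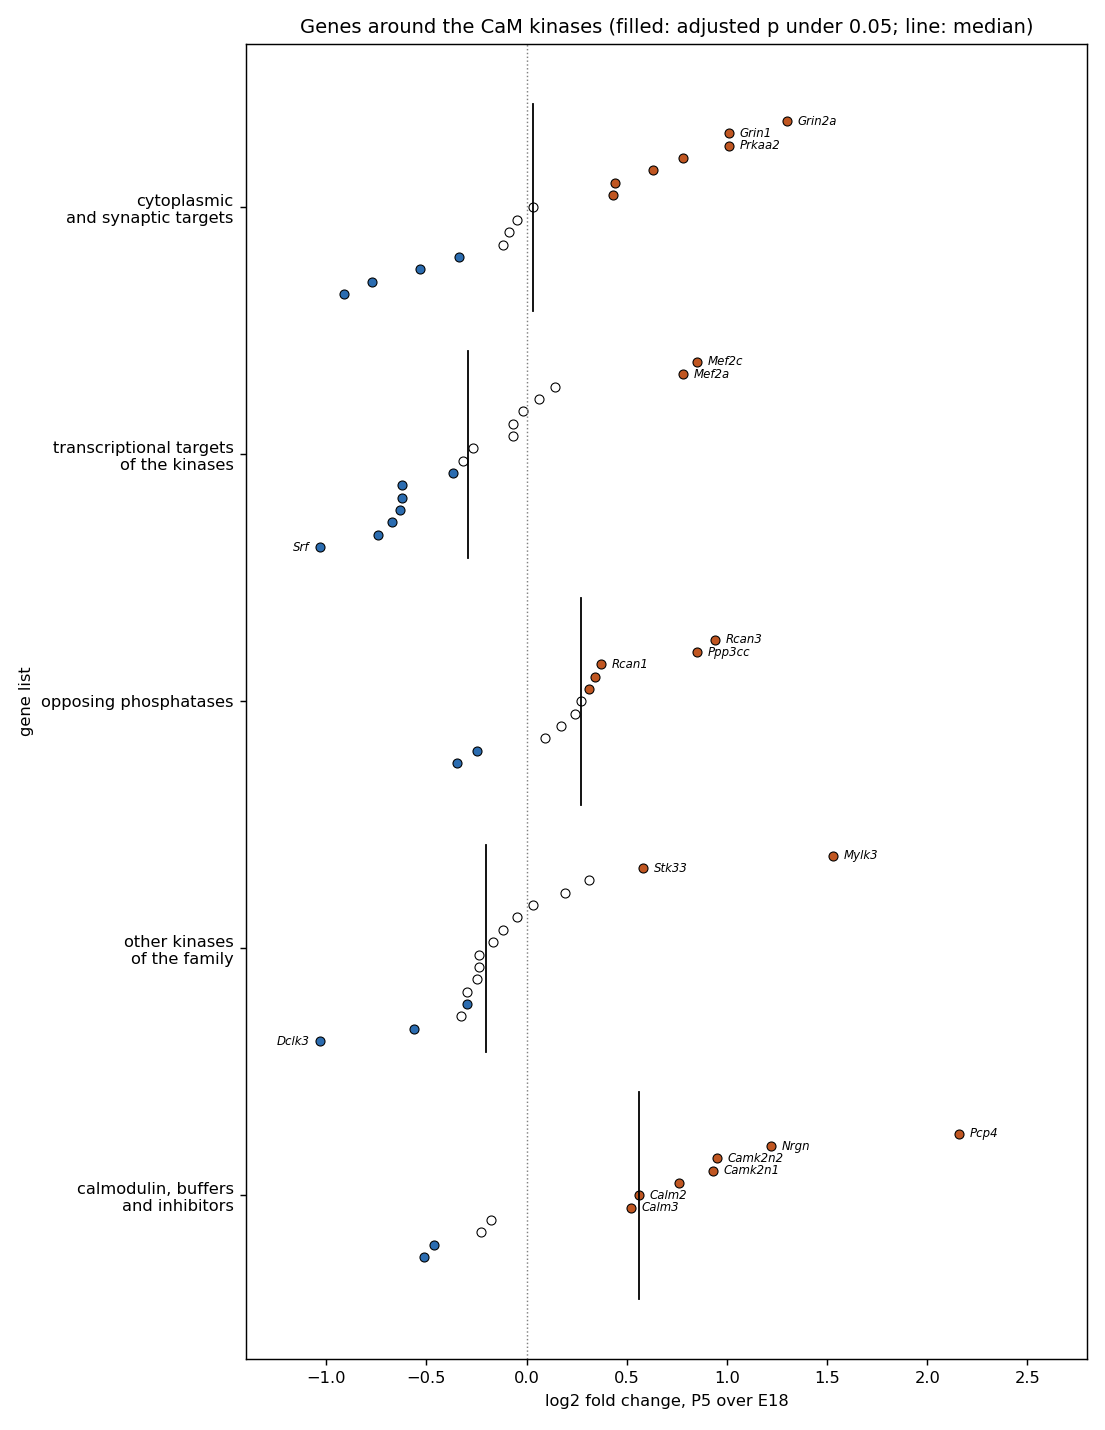
Log2 fold change of P5 over E18 for each tested gene of the 5 lists (points), filled where the edgeR test called the gene and open where it did not, with a line at the median of each list. The calmodulin list has its median at 0.56, and the transcriptional targets have theirs at -0.30.

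Promoter windows of 300 bases (RefSeq, GRCm38.p6) were found for 7 of the 10 genes. Camk2a, Camk2g and Camk4 were not matched. The letters GGGCGG, on either strand, occurred in 6 of the 7 genes, all but Camk1, against 35.7% of all 32851 windows. TGACG, the core of the CREB site, occurred in Camk1 and Camkk1, against 20.8%. The letters CAGCTG, an E-box, occurred in Camkv, against 16.3%. The consensus RE1, to which the repressor REST binds, occurred in none of the 7, against 0.0639% of all windows. At so low a rate 7 genes would rarely hold a match, so nothing about REST can be read from this. A gene can have several windows, and Camk1d had 2. Counted by gene, GGGCGG occurred in 38.2% of 27025 genes and TGACG in 23.0%.

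The genes most like Camkv over the 6 samples, by Pearson's r of log2 CPM among 9715 other genes that averaged 10 CPM or more, were Atp6v1g2 (r = 0.9995), Tuba4a (r = 0.9993) and Lynx1 (r = 0.9993). All of them had their highest value in P5 replicate 9. For Camkk2 they were Akap8l (r = 0.9977), Tbc1d25 (r = 0.9971) and Ehd1 (r = 0.9966). With 6 samples in 2 separate ages such values are common. An r of at least 0.95 was reached by 1170 genes for Camkv and by 419 for Camkk2.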

How the data were processed

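RNA of immunopanned RGCs was sequenced from 3 E18 and 3 P5 samples. Libraries were made with TruSeq and ribosomal RNA depletion, whereas the labels name polyA RNA. The submitters' processing notes name CASAVA 1.8.2 and edgeR. Alignment by the authors was to mm10 (STAR), and HT-seq gave the deposited raw counts for RefSeq genes in each sample. They also deposited normalized counts (a signal scaled for library size), log2 fold changes of E18 over P5, p-values with false discovery rates and a rank, a score per gene. None of these was used. The numbers 2 and 5 also stand in the column name of E18 replicate 1. Settings for strand and multiply mapped reads are not given in the sources used here.

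The 16449 genes that passed filterByExpr were TMM-normalized and fitted with edgeR 4.0.16 (quasi-likelihood, R 4.3.3). Adjusted p-values (Benjamini-Hochberg) were called at 0.05, and the fit was tested on simulated data. Precision is set by the spread between samples at this depth, and samples of one age differed by 32.5 to 152 chi-square units per degree of freedom, so no pair matched within sampling noise. Exon lengths, gene positions and transcripts come from GENCODE M21 (mm10). Fold changes are P5 over E18. The standard error of a log2 fold change is its absolute value divided by the square root of the F statistic of that test. For the 10 genes it is given as a description and is not read as a test. The alternatives were DESeq2 1.42.0, a likelihood ratio test, upper-quartile and RLE normalization, other filters and the omission of each sample. The 10 genes and the 5 lists were chosen with earlier results of these data known. Of each list, the 3 called genes with the largest change are named, with calmodulin genes and the CaMKII inhibitors. Values of 1 gene of the lists are not reported here. Others are said to be named after their values were seen. For likeness, the members with the largest fold change in each direction were used, with 0.5 CPM added before taking logs.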

Additional observations from a re-analysis of the deposited data

How the results depend on the processing

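No paired analysis was possible because the ages share no replicate number. The log2 fold changes of the 10 kinase genes kept their sign in all 120 values computed under 12 alternatives. Since the genes were selected on this comparison, the signs are a description and carry no test. Scaling and filters hardly moved the fold changes, and the likelihood ratio test left them as they were. For Camk1 and Camk2g the ages overlapped. Some fold changes moved by more than the standard error of the fit when a sample was left out. Without P5 replicate 9, Camkv went from 2.40 to 2.07 (standard error 0.236) and Camk2b from 0.88 to 0.71 (standard error 0.157). No scaling moved the median of all genes beyond -0.013 to -0.005. The number of genes called over the whole table, 7135, was 4575 without E18 replicate 3 and 8796 at most, without P5 replicate 8. Among the lists, the other kinases of the family (5 called) gave 1 to 9 and the opposing phosphatases (7 called) gave 2 to 8 when each sample was left out, the lowest without any 1 of the E18 samples for the phosphatases. Each of these fits has 1 sample fewer, and counts moved both up and down. The cause of these changes was not tested. The CaMKII shares depend on length. With counts not divided by length, the shares at E18 and P5 were 17.9% and 25.0% for Camk2b, 58.3% and 54.6% for Camk2d, and 22.8% and 18.9% for Camk2g. With the named transcript's length, an alternative chosen after seeing the data (also for levels and ratios per kilobase), they were 0.663% and 0.977% for Camk2a, 13.8% and 19.6% for Camk2b, 66.4% and 63.3% for Camk2d, and 19.1% and 16.1% for Camk2g. Gene counts do not tell splice forms apart, and 3 samples per age limit the precision.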
